A study of Mus musculus with 6 samples.

Results

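The core-binding factors are transcription factors made of a DNA-binding Runx subunit and a shared partner subunit. Their genes in the mouse are Runx1, Runx2, Runx3 and Cbfb, and these 4 genes were examined among the 55536 genes of the count table. They were chosen by family membership, after Runx3 had been picked for a fall in DKO testes that was already known from these counts. All 4 passed the filter on low counts and were among the 20744 genes tested. Because the fall chose Runx3, its values are given as a description with no test, and tests are given for Runx1, Runx2 and Cbfb.

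Testes of 4-month-old mice were sequenced from 3 inbred homozygous lines that share the FVB/NJ background, with 2 mice and so 2 libraries per genotype. WT mice were FVB/NJ. In P2KO (Padi2 single KO), a gene trap replaced part of exon 1 of Padi2 with LacZ and neomycin coding sequence. DKO (Padi2/Padi4 double KO) carried the same Padi2 allele in every animal together with a small frame-shifting deletion in exon 1 of Padi4, made with CRISPR/Cas9 in P2KO embryos. The line descends from 1 founder, so the Padi4 allele and any other difference fixed in that line cannot be told apart. Padi2 and Padi4 encode enzymes that convert arginine to citrulline in proteins. Whole testis is a mixture of germ cells and somatic cells, so that fewer cells of a type and less RNA per cell cannot be told apart in any value given here.

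The Runx proteins bind DNA through the Runt domain, whose core motif is TGTGGT (read as ACCACA on the other strand) or, less often, TGCGGT. Cbfb does not bind DNA itself but stabilises each Runx subunit on its site, and a Runx protein without it works poorly. Runx1 is known for the origin of blood stem cells, Runx2 for bone-forming cells, and Runx3 for cytotoxic T cells and for sensory neurons. Each Runx gene is commonly read from a distal and a proximal promoter.

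Depth ranged from 21939393 to 27306679 counts per library, and the TMM factors from 0.984 to 1.02. Testis markers were abundant, with the spermatid gene Prm2 at 6071 FPKM in WT, while the epididymal gene Lcn5 had no count in any library. Padi4 counts were 20 and 43 in WT, 11 and 10 in P2KO, and 4 and 4 in DKO, a log2 fold change of -2.94 in DKO against WT (SE 0.513, adjusted p = 2.78e-04). It was -1.63 in P2KO against WT (adjusted p = 0.0959) and -1.31 in DKO against P2KO (adjusted p = 0.404), so Padi4 was not called between the 2 knockouts. Padi2 counts were 47 and 64 in WT, 100 and 55 in P2KO, and 59 and 83 in DKO, so the total over Padi2 was not lower in either knockout and does not check those labels. Most of Padi2 lies outside the replaced part of exon 1.

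Sequences of the start sites are shown because 3 of the 4 genes share a stretch there that holds the family's own motif. RefSeq (GRCm38.p6) gave windows of 300 bases, from 250 before to 50 after a start, for all 4 genes. The same 18 bases, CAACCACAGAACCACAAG, which hold the motif in the ACCACA orientation, occurred near the distal start of Runx1, Runx2 and Runx3 and in 4 of 32851 windows in all. These bases were chosen as the longest stretch shared by the distal windows of Runx1, Runx2 and Runx3, so 3 of the 4 matches were fixed by that choice. The other window with these bases belongs to Gm16225, a noncoding gene read in the opposite direction from the same place as Runx3, which had 0 counts in all 6 libraries. Each line gives 30 bases around the stretch on the strand of the gene, with copies of the motif in capitals. The last capitals of the Runx2 line are the start of a TGCGGT copy.
Runx1, chr16:92826026-92826055, minus strand: tcataaacaACCACAgaACCACAagttggg
Runx2, chr17:44814584-44814613, minus strand: tcacaaacaACCACAgaACCACAagTGCGG
Runx3, chr4:135120502-135120531, plus strand: ggtccctcaACCACAgaACCACAaggccag

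The stretch began 26 bases after the start in Runx1 and 21 bases after it in Runx2, but at position -136 in Runx3, upstream of the start. With both strands searched, TGTGGT was found in 16.8% of all windows, and 1.81% held 2 or more copies. TGCGGT was found in 6.5%. The distal window of Runx1 held 2 copies of TGTGGT, that of Runx2 held 3 with 1 further copy of TGCGGT, and that of Runx3 held 2. Both copies of Runx1 and both of Runx3 lie in the shared stretch. The window of Cbfb and the second windows of Runx1 and Runx3, which lie inside those genes, held none. A match describes letters and does not show binding.

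The 250 bases upstream of both Runx3 starts are printed because Runx3 is the member that was picked for its lower level in DKO. Capitals mark the motif copies. The distal stretch had a GC content of 65.2% and the internal one, which lies in the gene, of 78.8%.
Runx3 distal, chr4:135120395-135120644, plus strand: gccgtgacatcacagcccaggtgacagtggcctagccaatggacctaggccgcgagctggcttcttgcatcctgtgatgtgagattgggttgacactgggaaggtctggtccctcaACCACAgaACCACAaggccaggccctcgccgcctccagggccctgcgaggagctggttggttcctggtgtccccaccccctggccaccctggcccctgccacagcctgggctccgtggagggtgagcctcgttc
Runx3 internal, chr4:135152295-135152544, plus strand: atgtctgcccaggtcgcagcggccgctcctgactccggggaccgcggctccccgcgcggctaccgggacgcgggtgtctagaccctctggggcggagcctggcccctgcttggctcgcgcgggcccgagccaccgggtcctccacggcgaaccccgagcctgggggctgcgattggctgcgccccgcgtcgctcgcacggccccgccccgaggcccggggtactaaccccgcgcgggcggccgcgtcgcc

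Runx3 (ENSMUSG00000070691, GRCm38 chr4:135120652-135177990, plus strand, 6 annotated transcripts of which 2 code for protein) was the member with a lower level in DKO. Its normalised counts, which are counts scaled to the library's TMM-adjusted size, were 401 and 357 in WT, 371 and 340 in P2KO, and 64.2 and 79.5 in DKO. Both DKO libraries lay far below the other 4 libraries, which overlapped between WT and P2KO. The means were 379 ± 30.9 in WT, 355 ± 22.03 in P2KO and 71.8 ± 10.8 in DKO (SD, n = 2). Runx3 was 5.28-fold lower in DKO than in WT (log2 fold change -2.40, SE 0.146) and 4.97-fold lower than in P2KO (-2.31, SE 0.146). Between P2KO and WT the log2 fold change was -0.09 (SE 0.115). Among the tested genes, 15 had a lower log2 fold change than Runx3 in DKO against WT, and 13 of these 15 lie on chromosome 4, as Runx3 does. Against P2KO 8 genes had a lower one, 5 of them on chromosome 4, which holds 5.91% of all tested genes. Both comparisons use the same DKO libraries, and the comparisons against WT share the WT libraries.

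**Figure D1:**
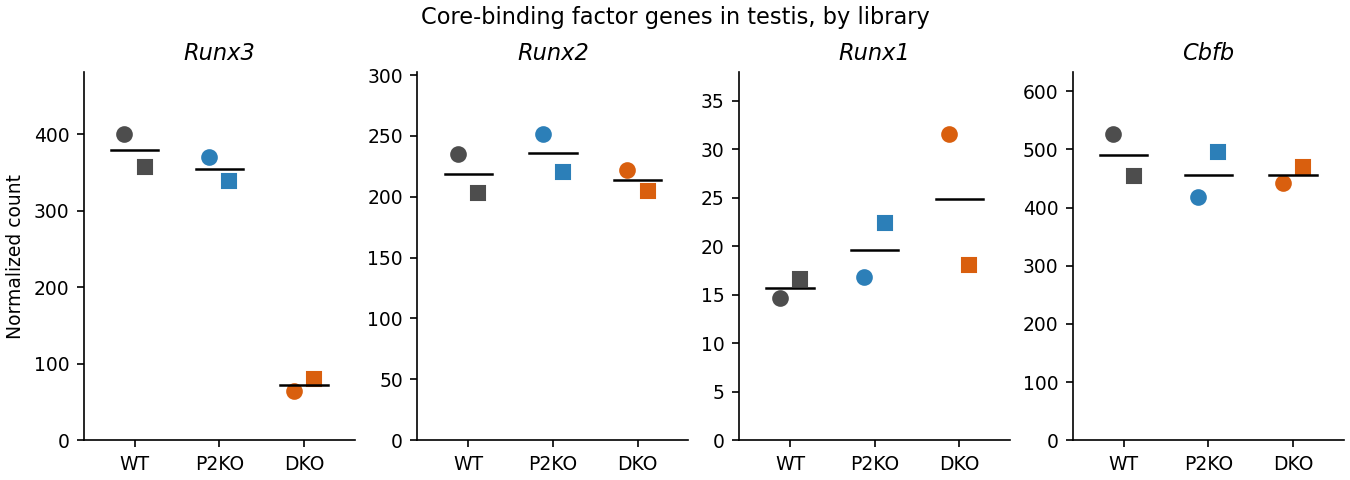
Normalised counts of Runx3, Runx2, Runx1 and Cbfb in each library, with genotype on the horizontal axis and each gene on its own vertical scale from 0. Circles are mouse 1, squares mouse 2 and bars the mean of the 2 mice. For Runx3 both DKO libraries (64.2 and 79.5) lie below the other 4 (340 to 401), whereas for Runx2 and Cbfb the genotypes overlap and for Runx1 the counts are low throughout.

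Runx2 (ENSMUSG00000039153, chr17:44495987-44814797, minus strand), the bone-forming member, did not follow Runx3. Its normalised counts were 235 and 203 in WT, 252 and 220 in P2KO, and 222 and 205 in DKO. Every genotype overlapped every other. The log2 fold change was 0.12 in P2KO against WT (SE 0.132, 95% interval -0.15 to 0.39, adjusted p = 0.870) and -0.03 in DKO against WT (SE 0.134, interval -0.30 to 0.24, adjusted p = 0.958). In DKO against P2KO it was -0.15 (SE 0.132, interval -0.42 to 0.12, adjusted p = 0.720). All 3 intervals held 0 and lay between -0.42 and 0.39.

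Runx1 (ENSMUSG00000022952, chr16:92601466-92826149, minus strand), the blood stem cell member, was near the lower end of what could be tested. It had 13 and 18 raw counts in WT, 19 and 21 in P2KO, and 33 and 17 in DKO. After normalisation the values were 14.6 and 16.7, 16.9 and 22.4, and 31.6 and 18.0, so DKO 1 was the highest library while DKO 2 lay within the range of P2KO. The log2 fold changes were 0.30 in P2KO against WT (SE 0.413, interval -0.54 to 1.14, adjusted p = 0.903), 0.67 in DKO against WT (SE 0.398, interval -0.14 to 1.48, adjusted p = 0.487) and 0.36 in DKO against P2KO (SE 0.380, interval -0.41 to 1.14, adjusted p = 0.771). Each interval held both 0 and a rise by a log2 value of 1.

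Cbfb (ENSMUSG00000031885, chr8:105170674-105217989, plus strand), the partner subunit, had normalised counts of 527 and 455 in WT, 418 and 495 in P2KO, and 443 and 470 in DKO. The genotypes overlapped. Its log2 fold change was -0.11 in P2KO against WT (SE 0.104, interval -0.32 to 0.11, adjusted p = 0.847), -0.10 in DKO against WT (SE 0.104, interval -0.31 to 0.11, adjusted p = 0.745) and 0.00 in DKO against P2KO (SE 0.105, interval -0.21 to 0.22, adjusted p = 0.996). Of Runx1, Runx2 and Cbfb, edgeR called 0 in each comparison, and 0 of their unadjusted p-values were under 0.05. DESeq2 called 0 as well, with no adjusted p for Runx1 in the comparisons of DKO. Over all tested genes 0.337% were called in P2KO against WT (0.198% higher and 0.14% lower). The share was 3.22% in DKO against WT (2.06% higher and 1.16% lower) and 1.21% in DKO against P2KO (0.607% higher and 0.598% lower). Before adjustment, 8.57% of all tested genes had a p under 0.05 in P2KO against WT, 14.1% in DKO against WT and 11.8% in DKO against P2KO.

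Per length of merged exons the genes could be ranked against each other. In FPKM (fragments per kilobase of exon, scaled to library size), WT averaged 5.75 ± 0.602 for Cbfb, 3.09 ± 0.252 for Runx3, 1.01 ± 0.107 for Runx2 and 0.0531 ± 0.00484 for Runx1 (SD, n = 2). The order was the same in P2KO, with 5.34 ± 0.640, 2.89 ± 0.179, 1.09 ± 0.103 and 0.0664 ± 0.0132. In DKO, Runx2 at 0.984 ± 0.0574 FPKM stood above Runx3 at 0.585 ± 0.0883, with Cbfb at 5.34 ± 0.225 and Runx1 at 0.0841 ± 0.0326. Within each genotype the libraries of neighbouring genes in these orders did not overlap. Runx3 exceeded 52.2% of tested genes in WT, 50.8% in P2KO and 21.1% in DKO. The merged exons of Runx1 (12025 nt) and Runx2 (8837 nt) are longer than those of Runx3 (5003 nt) and Cbfb (3480 nt), and they pool all annotated transcripts.

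**Figure D2:**
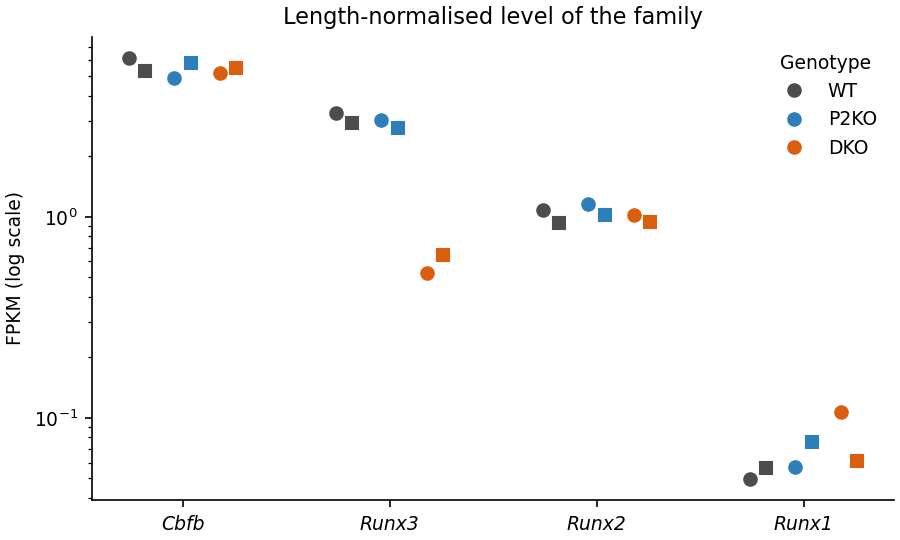
FPKM of the 4 genes on a log axis, by genotype (colour) and mouse (circle for mouse 1, square for mouse 2). Cbfb lies highest in every library, Runx3 lies above Runx2 in WT and P2KO and below it in DKO, and Runx1 stays at or under 0.107 FPKM.

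The makeup of the summed Runx RNA therefore differed between DKO and the other lines, as the choice of Runx3 fixes. No protein was measured in these libraries. The summed FPKM of the 3 Runx genes was 4.40 and 3.90 in WT, 4.24 and 3.86 in P2KO, and 1.66 and 1.65 in DKO. Runx3 made up 74.2% and 74.6% of that sum in WT, 71.25% and 71.7% in P2KO, and 31.6% and 39.2% in DKO. Runx2 took 24.7% and 24.0%, 27.4% and 26.3%, and 61.9% and 57.1% in the same order of libraries. Runx1 took from 1.13% to 6.47%. Cbfb stood at 1.40 and 1.36 times the Runx sum in WT, 1.15 and 1.50 times in P2KO, and 3.13 and 3.33 times in DKO, with Cbfb itself within its spread.

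Genes that overlap the members on the chromosome were looked at because reads could be shared between them. The antisense gene Gm16224 lies within Runx3, shares no exon bases with it and had at most 3 counts in a library. Within Runx2, Runx2os1 shares 519 exon bases but had 0 counts, n-R5s27 also had 0, and Runx2os2 had 1 count in DKO 1. Runx2os3 shares no exon bases and had normalised counts from 116 to 168, with log2 fold changes of -0.03 in P2KO against WT, 0.15 in DKO against WT and 0.17 in DKO against P2KO, none of them called. Supt3, a subunit gene of transcriptional coactivator complexes, overlaps the Runx2 start on the other strand with no shared exon bases. It ranged from 898 to 1046 and was not called. Gm26626 shares 106 exon bases with Runx1 and was seen with 2 counts in DKO 2, and the small RNA genes Gm22063 and Gm24629 within Cbfb had at most 2 counts and 0.

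Runx3 lies 5.57 Mb from Padi4 and 5.73 Mb from Padi2 on chromosome 4. In DKO against WT, 12 of the 48 other tested genes within 1 Mb of Runx3 were called (25.0%), 6 higher and 6 lower, beside 3.22% of all tested genes, and DESeq2 called 10. Their median absolute log2 fold change was 0.27, against 0.13 over all tested genes. The nearest, Clic4, which encodes a chloride intracellular channel protein and lies 36 kb downstream, had normalised counts of 1793 and 1756 in WT, 1864 and 1795 in P2KO, and 2580 and 2658 in DKO. It rose by 0.56 on the log2 scale (SE 0.0650, adjusted p = 1.97e-07) and so moved opposite to Runx3. On the upstream side the nearest tested gene was the splicing factor gene Syf2, 183.1 kb away, with a log2 fold change of -0.06 (SE 0.0771, adjusted p = 0.816). Of the 9 tested genes within 250 kb, Clic4 was the 1 called.

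Farther out, called genes lay on both sides of Runx3. Among those higher in DKO than in WT were E2f2, a cell cycle transcription factor gene (log2 fold change 2.82, SE 0.307), Myom3, which encodes a muscle M-band protein (2.17, SE 0.308), Sh3bgrl3 (1.03) and Eloa, elongin A (0.31). Lower were Aunip, an Aurora kinase A partner (-2.41, SE 0.164), 1700021N21Rik (-1.54, SE 0.204), Pnrc2 (-0.58), Paqr7, a membrane progestin receptor (-0.43), Rpl11 (-0.30) and Catsper4, a subunit of the sperm calcium channel (-0.28). Aunip was the neighbour whose levels resembled those of Runx3 in size, with 286 and 280 in WT, 317 and 302 in P2KO, and 62.3 and 43.5 in DKO. Rpl11 belongs to a family with near-identical processed copies, and whether the counting split reads among them was not tested.

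Against P2KO, 11 of the 48 were called in DKO (22.9%), 5 higher and 6 lower, beside 1.21% of all tested genes, and they included Slc30a2, a zinc transporter gene (-0.35, adjusted p = 0.0147). This count fell to 6 without P2KO 2 and to 6 without DKO 2. In P2KO against WT, E2f2 alone was called (1.54, SE 0.340, adjusted p = 0.0236), 1 of 48 or 2.08% beside 0.337% of all tested genes, and that call rests on 1 mouse. E2f2 had normalised counts of 42.8 and 54.6 in WT, 228 and 50.04 in P2KO, and 305 and 395 in DKO. Without P2KO 1 its log2 fold change in P2KO against WT was 0.03 (adjusted p = 0.993), and without P2KO 2 it was 2.21 (adjusted p = 3.02e-09). Myom3 was also split, with 83.4 in P2KO 1 and 24.5 in P2KO 2, beside 24.8 and 26.8 in WT. Runx3 itself was not split in this way, with 371 and 340.

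**Figure D3:**
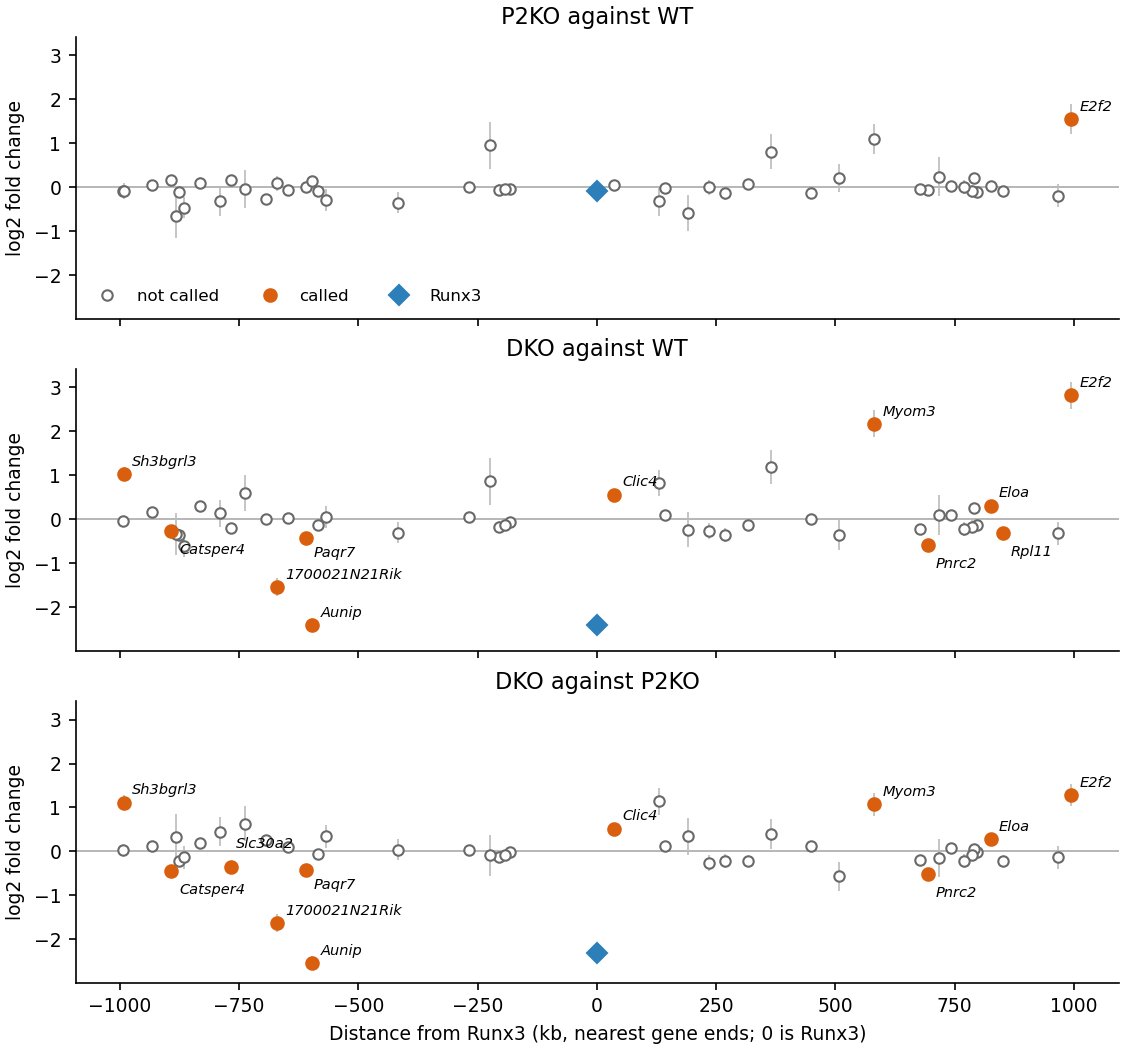
Log2 fold changes of tested genes within 1 Mb of Runx3, by distance between gene ends in kb, with 1 panel per comparison and bars of 1 SE. Filled circles are called genes that the text names, open circles are genes not called, and the diamond is Runx3. In DKO against WT the 11 called neighbours shown lie on both sides and in both directions, from -2.41 (Aunip) to 2.82 (E2f2).

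The surroundings of the other members were counted in the same way. Within 1 Mb of Runx2, 1 of 29 tested genes was called in DKO against WT (Tdrd6, a germ cell Tudor protein gene, 0.24, adjusted p = 0.0143), a share of 3.45% beside 3.22% of all tested genes. In DKO against P2KO 1 was called (Capn11, a testis calpain gene, 0.25, adjusted p = 0.0464), which is 3.45% beside 1.21% of all, and DESeq2 called 0 there. In that comparison 8 of the 29 had an unadjusted p under 0.05, beside 11.8% of all tested genes. The 29 had a median absolute log2 fold change of 0.20, beside 0.12 over all tested genes and 0.22 around Runx3. In P2KO against WT edgeR called 0, with 3 at an unadjusted p under 0.05 (beside 8.57% of all tested genes) and 0 by DESeq2. No test compared the surroundings of the members. For Runx1, edgeR called 0 of 26 in every comparison, with 0, 1 and 3 genes at an unadjusted p under 0.05 and 0, 1 and 0 called by DESeq2 in P2KO against WT, DKO against WT and DKO against P2KO. For Cbfb it called 0 of 75, with 4, 12 and 8 at an unadjusted p under 0.05 and 0 called by DESeq2 in each. Over all tested genes the called shares in these comparisons were 0.337%, 3.22% and 1.21%, and the shares at an unadjusted p under 0.05 were 8.57%, 14.1% and 11.8%.

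The genes whose log2 CPM followed Runx3 most closely over the 6 libraries were named by Pearson's r, as a description. On chromosome 4 they were Crybg2 (r = 0.9977), Gm12974 (0.9924), 1700080G11Rik (0.9894), Gm12925 (0.9852) and Paqr7 (0.9843). Elsewhere they were BC002163 (0.9977), Syce3, a synaptonemal complex gene (0.9965), Lgr6, a receptor gene for R-spondins (0.9958), Dbr1, the lariat debranching enzyme (0.9948), and Gm8702 (0.9905). In DKO against WT, edgeR did not call Syce3, Lgr6, Dbr1 or Gm8702 (adjusted p from 0.344 to 0.738). Their log2 fold changes ran from -0.20 (Dbr1) to -0.15 (Lgr6). Likeness of shape hid very different sizes. Crybg2 had 155 and 129 in WT, 158 and 141 in P2KO, and 20.1 and 27.6 in DKO, while Dbr1 had 106 and 106, 107 and 106, and 92.0 and 93.3. BC002163 went farther than Runx3, with 295 and 309, 282 and 277, and 6.71 and 9.54. BC002163 and Gm8702 are annotated as processed pseudogenes, and whether their counts hold reads of parent genes elsewhere was not tested. An r of at least 0.9 was reached by 371 of 20743 other tested genes, 43 of them on chromosome 4, beside the 5.91% of all tested genes that lie there. At an r of at least 0.95 there were 115, with 25 on chromosome 4. The points share libraries, and the contrast of 2 DKO libraries with 4 others sets most of such an r. For the other members r with Runx3 was 0.387 (Runx2), 0.248 (Cbfb) and -0.663 (Runx1).

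**Figure D4:**
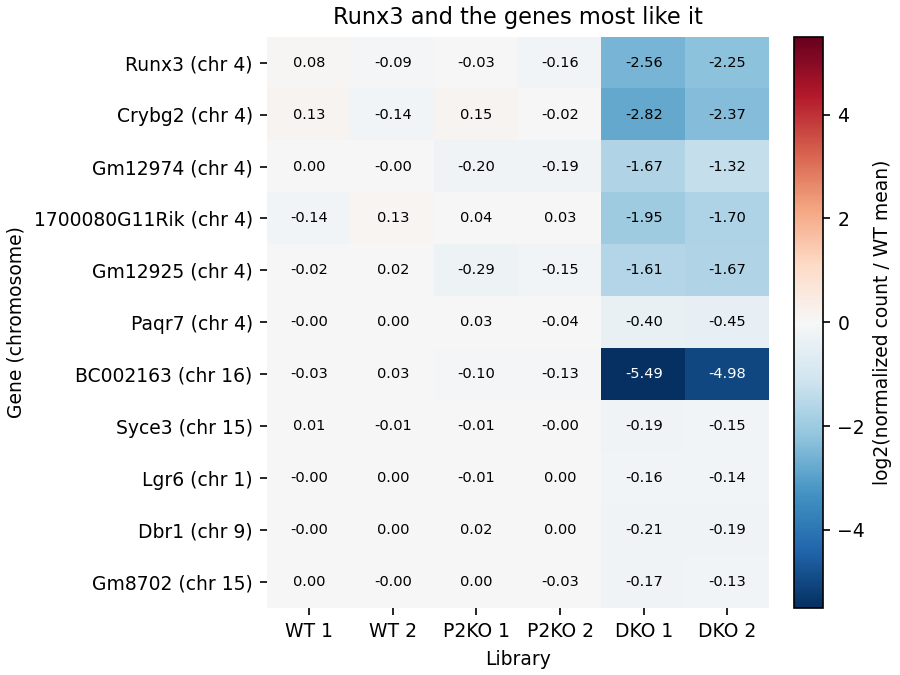
Log2 ratio of each library's normalised count to the WT mean for Runx3 and the 10 genes named for their likeness to it, with libraries in columns and genes in rows. All 11 rows lie between -0.29 and 0.15 in WT and P2KO and are negative in both DKO libraries, from -0.13 (Gm8702 in DKO 2) to -5.49 (BC002163 in DKO 1).

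Runx proteins act by recruiting corepressors such as the Tle and Eto families, histone deacetylases and Polycomb proteins, or coactivators such as the acetyltransferases Ep300, Crebbp and Kat6a. Of 38 listed co-regulators, 36 were tested. The most abundant in WT were the histone methyltransferase gene Ehmt2 at 85.2 ± 8.90 FPKM, the deacetylase gene Hdac1 at 42.3 ± 1.48 and the Polycomb gene Bmi1 at 37.5 ± 1.13, and none of these was called. In DKO against WT, 4 rose and 1 fell (13.9% called, beside 3.22% of all tested genes), and 31 were not called. The list median was 0.03, against -0.00480 over all tested genes.

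The 4 that rose were Kat6a (0.45, SE 0.0964, adjusted p = 0.00374), the corepressor gene Ncor1 (0.34, SE 0.0674, adjusted p = 0.00119), Crebbp (0.33, SE 0.0765, adjusted p = 0.00903) and Ep300 (0.32, SE 0.0780, adjusted p = 0.0108). Ncor1 had normalised counts of 3367 and 2836 in WT, 3294 and 3465 in P2KO, and 3911 and 3959 in DKO. Ring1, a ubiquitin ligase of Polycomb complexes that can bind Runx proteins, had 486 and 355 in WT, 380 and 434 in P2KO, and 254 and 294 in DKO. Both DKO libraries were below all others, and Ring1 fell by 0.61 (SE 0.127, adjusted p = 0.00253). That call was lost without WT 1 and without DKO 1, where 0 of the list were called lower. Without WT 2 the number called in the list dropped from 5 to 2, and it also dropped to 2 without DKO 2. The 4 that rose have merged exons of 9180 to 14273 nt. Of the 1967 tested genes with at least 9000 nt, 205 were called higher in DKO against WT (10.4%), against 2.06% of all tested genes, and the part of exon length in these calls was not tested.

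In DKO against P2KO, Ring1 alone was called among the co-regulators (-0.57, SE 0.127, adjusted p = 0.0112), 1 of 36 or 2.78% beside 1.21% of all tested genes. DESeq2 called 0 of the list there, and edgeR called 0 without P2KO 2 and 0 without DKO 1. In P2KO against WT, edgeR called 0, with 2 at an unadjusted p under 0.05 (beside 8.57% of all tested genes) and 0 by DESeq2. Without WT 1 the count in P2KO against WT was 3.

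Signals of the TGF-beta superfamily act through Smad proteins, which can bind Runx proteins, and through receptors that many testis cells carry. Of 34 listed genes of this pathway 32 were tested, and edgeR called 0 in each of the 3 comparisons. At an unadjusted p under 0.05 there were 5 of the 32 in P2KO against WT (beside 8.57% of all tested genes), 4 in DKO against WT (beside 14.1% of all) and 2 in DKO against P2KO (beside 11.8% of all). DESeq2 called 0 in each, and edgeR called 0.337%, 3.22% and 1.21% of all tested genes. The most abundant were Inha, the inhibin alpha subunit, at 48.0 ± 2.65 FPKM in WT, and the Smad ubiquitin ligase genes Smurf1 (16.1 ± 0.916) and Smurf2 (13.8 ± 1.23). In DKO against WT their log2 fold changes were -0.03, 0.16 and 0.16. The median of the pathway was 0.05 in that comparison.

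Of 42 listed genes known as Runx targets in blood, bone or gonads, 24 passed the filter on low counts and were tested, and 8 had at most 3 counts in every library. The cytotoxic T cell genes Prf1 and Ifng and the cartilage collagenase gene Mmp13 had 0 counts in all libraries. The T cell coreceptor gene Cd8a had at most 2. The most abundant were Cyp11a1, the first enzyme of steroid synthesis (22.1 ± 0.479 FPKM in WT), the integrin gene Itgae (14.9 ± 0.0422) and the cell cycle inhibitor gene Cdkn1a (2.98 ± 0.0249). Itgae, which encodes CD103 of T cells, did not move with Runx3, at 1679 and 1672 in WT and 1609 and 1616 in DKO (log2 fold change -0.06, SE 0.0671, adjusted p = 0.798).

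In DKO against WT, 1 of the 24 target genes was called higher and 1 lower (8.33%, beside 3.22% of all tested genes), where DESeq2 called 1. Alpl, the tissue-nonspecific alkaline phosphatase of bone and germ cells, had normalised counts of 291 and 288 in WT, 149 and 178 in P2KO, and 191 and 152 in DKO. It fell in both knockouts, by 0.83 in P2KO against WT (SE 0.139, adjusted p = 5.68e-04) and by 0.75 in DKO against WT (SE 0.138, adjusted p = 5.38e-04). Whether its level is tied to that of Runx3 was not tested. Alpl also lies on chromosome 4. Cyp11a1 rose by 0.28 in DKO against WT (SE 0.0762, adjusted p = 0.0324), and its difference in P2KO was 0.29 (SE 0.0761, adjusted p = 0.103). In P2KO against WT, Alpl was the 1 of 24 called (4.17%, beside 0.337% of all). In DKO against P2KO edgeR called 0 (beside 1.21% of all), with 5 at an unadjusted p under 0.05 (beside 11.8% of all) and 0 by DESeq2.

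**Figure D5:**
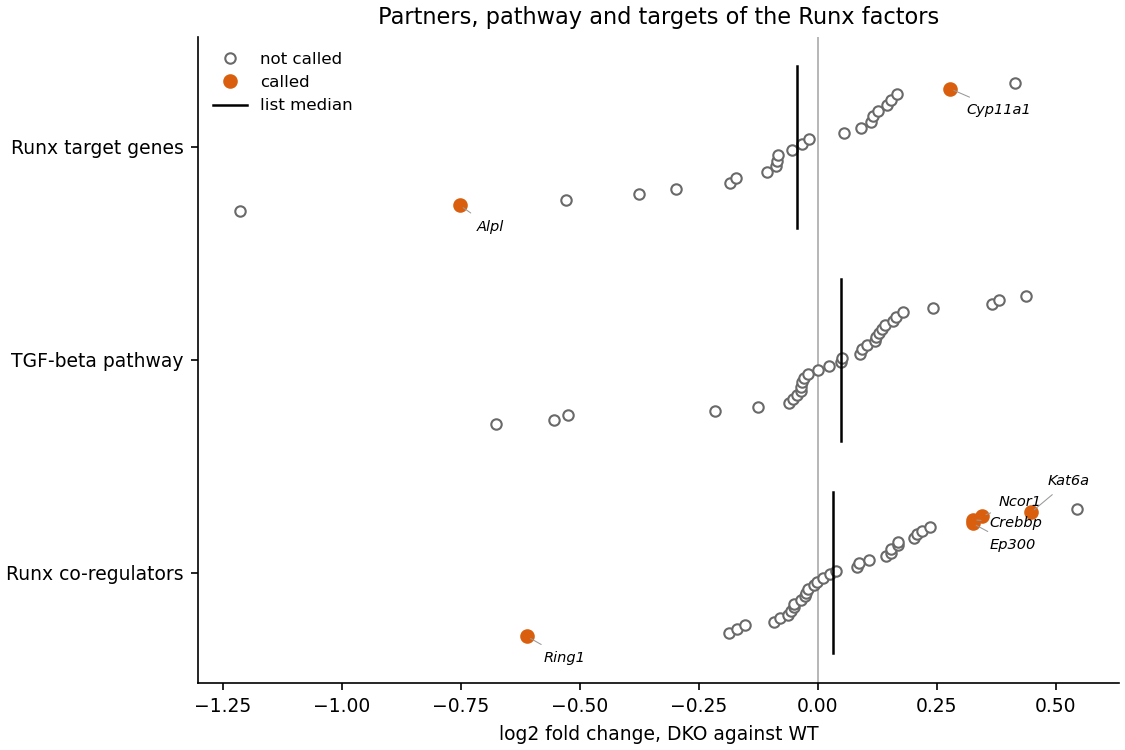
Log2 fold changes in DKO against WT (horizontal axis) of the tested members of 3 lists, with 1 circle per gene, filled where called and spread vertically for legibility. Black lines mark the list medians, which lie at 0.03 for co-regulators, 0.05 for the TGF-beta pathway and -0.04 for target genes.

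Markers of cells that commonly express Runx genes were set beside these values. Of 16 T and NK cell markers, 7 were tested and edgeR called 0 in every comparison, with 1, 0 and 2 at an unadjusted p under 0.05 in P2KO against WT, DKO against WT and DKO against P2KO and 0 by DESeq2. Their summed level was 8.95 to 9.22 FPKM in WT, 8.97 to 9.48 in P2KO and 7.745 to 8.59 in DKO. Most of it came from Cd3d (5.12 FPKM in WT) and Cd8b1 (0.975), and the defining genes Ncr1, Gzma and Prf1 were at 0. All 14 myeloid markers were tested and 0 were called, with 3, 1 and 1 at an unadjusted p under 0.05 and 0 by DESeq2. Beside these counts of both lists stand 0.337%, 3.22% and 1.21% of all tested genes called, and 8.57%, 14.1% and 11.8% at an unadjusted p under 0.05. The myeloid sum was 243 to 269.5 FPKM in WT, 227 to 239 in P2KO and 236 to 248 in DKO, led by Aif1 (213 in WT) and Lyz2 (12.8). Most of this sum came from Aif1, so it says little about the other myeloid markers. Of 9 bone and cartilage markers 4 were tested, led by Col2a1 (5.62) and Sost (1.18), and Col2a1, cartilage collagen, fell by 0.46 in DKO against WT (adjusted p = 2.47e-04) and by 0.54 in DKO against P2KO. This is 1 of 4 called in each (25.0%), beside 3.22% and 1.21% of all tested genes, and the other 3 were not called. The sum of the bone and cartilage list was 7.545 to 7.82 FPKM in WT, 7.80 to 8.28 in P2KO and 5.675 to 6.055 in DKO. Most of this sum in WT came from Col2a1, and the bone genes Sp7 and Bglap had at most 4 counts. The T and NK sums and the bone and cartilage sums of both DKO libraries lay below those of all WT and P2KO libraries, and their part in the level of Runx3 was not tested.

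Testis cell lists were counted in the same way. Of 8 Leydig cell markers tested, Star, Cyp17a1, Cyp11a1 and Hsd3b6 rose and Hsd3b1 fell in DKO against WT, and Hsd3b6 rose in DKO against P2KO, with a summed level of 291.0 to 291.2 FPKM in WT, 286.5 to 313 in P2KO and 308 to 365 in DKO, so that P2KO and DKO overlapped. The 5 called in DKO against WT make 62.5% of the list, beside 3.22% of all tested genes, and DESeq2 called 2 of the list there. The 1 called in DKO against P2KO makes 12.5%, beside 1.21%, and DESeq2 also called 1. In P2KO against WT both tools called 0, with 5 of the 8 at an unadjusted p under 0.05 (beside 8.57% of all tested genes). There were 6 in DKO against WT (beside 14.1% of all) and 6 in DKO against P2KO (beside 11.8% of all). The log2 fold change of Cyp11a1 was 0.29 in P2KO against WT (adjusted p = 0.103) and 0.28 in DKO against WT. Of 10 spermatid markers, Prm1 and Tnp1 fell in DKO against WT, Tnp2 fell in P2KO against WT and Spaca1 fell in DKO against P2KO. These are 2 of the 10 in DKO against WT and 1 of the 10 in each of the other comparisons, beside 3.22% of all tested genes in DKO against WT, 0.337% in P2KO against WT and 1.21% in DKO against P2KO. DESeq2 called 0 of the list in both comparisons of DKO and 1 in P2KO against WT. At an unadjusted p under 0.05 there were 7 of the 10 in P2KO against WT, 5 in DKO against WT and 2 in DKO against P2KO, beside 8.57%, 14.1% and 11.8% of all tested genes. The spermatid sum was 21050 to 21920 FPKM in WT, 17760 to 19650 in P2KO and 19100 to 19240 in DKO, lower in every knockout library than in WT. edgeR called 0 in the lists of Sertoli cells (12 tested, led by Clu and Cldn11), peritubular myoid cells (6, Actg2 and Acta2), endothelium (6, Vwf and Cdh5), spermatogonia (10, Uchl1 and Id4), spermatocytes (10, Ldhc and Pgk2) and epididymis (2, Rnase10 and Spint5), where DESeq2 also called 0 and at most 2 genes of a list had an unadjusted p under 0.05. In 2 of these lists the sums of both DKO libraries stood apart. The spermatogonial sum was 58.1 to 59.6 FPKM in WT, 57.1 to 57.3 in P2KO and 53.65 to 55.5 in DKO. The endothelial sum was higher in DKO, at 3.51 to 3.85 FPKM, beside 3.185 to 3.22 in WT and 3.385 to 3.49 in P2KO, with a list median log2 fold change of 0.36 in DKO against WT. The part of the testis cell lists in the level of Runx3 was not tested either.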

How the data were processed

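RNA from testes of WT, P2KO and DKO mice had been sequenced by the authors from strand-specific, poly(A)-selected libraries. The authors used Trim Galore and STAR (GRCm38), and the deposited values are whole-number counts per Ensembl gene, neither normalised nor filtered. Versions and the strand column of STAR are not given in the sources used here. Symbols, positions and exon lengths came from a GRCm38 annotation that held all 55536 identifiers, and Tle5 was matched as Aes.

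Tests were made with edgeR 4.0.16 in R 4.3.3. After filterByExpr (minimum count 10) and TMM scaling, glmQLFit and glmQLFTest were applied to all 6 libraries with a term for genotype (3 residual degrees of freedom). P-values were adjusted by Benjamini-Hochberg over 20744 genes, and an adjusted p under 0.05 was a call. The SE is the absolute log2 fold change over the square root of F. Nothing names litters or batches, so p-values measure the spread between these mice.

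Members and lists were chosen with earlier results of these data known. Named genes are the members, Padi2 and Padi4, genes overlapping a member, called genes within 1 Mb of one, called and most abundant genes of the lists, and the 5 genes on chromosome 4 and 5 elsewhere most correlated with Runx3 (log2 CPM, prior count 2). Gm16225, Syf2, Myom3 in P2KO, Prm2, Lcn5, Cd8a, Sp7, Bglap and genes at 0 were named after their values were seen. 1 called gene near Runx3 is counted but not reported here by name. Alternatives were RLE size factors, no filter, a mean of at least 50 counts, DESeq2 1.42.0, the 2 genotypes alone, a replicate block and leaving out each library.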

Additional observations from a re-analysis of the deposited data

How the results depend on the processing

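Directions and calls of Runx1, Runx2 and Cbfb were recomputed under 6 alternatives and without each library. None was called under any of them, and the lowest adjusted p over all was 0.422 for Runx1, 0.655 for Runx2 and 0.620 for Cbfb. Runx1 could not be fitted at a mean of at least 50 counts, and DESeq2 gave it no adjusted p in the comparisons of DKO. Where a library was left out, the lone mouse of its genotype was assumed to vary like the others. The sign of Cbfb in DKO against P2KO turned with no filter (-8.1e-05) and at a mean of at least 50 counts (-0.00277), around a value of 0.00. Leaving out 1 library moved log2 fold changes of Cbfb from -0.12 to 0.13 in DKO against P2KO, from -0.23 to 0.0166 in P2KO against WT and from -0.21 to -0.001 in DKO against WT, those of Runx1 in DKO against WT from 0.19 (without DKO 1) to 1.0 (without DKO 2), in P2KO against WT from 0.0956 to 0.50 and in DKO against P2KO from -0.11 to 0.70, and those of Runx2 in DKO against WT from -0.14 to 0.0707, in P2KO against WT from 0.00763 to 0.22 and in DKO against P2KO from -0.23 to -0.0447. The fold change of Runx3 stayed between -2.56 and -2.25 against WT and between -2.47 and -2.16 against P2KO.

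Counts of called genes moved more. In P2KO against WT, 70 genes became 140 with no filter, 41 with DESeq2, and from 53 to 311 with 1 library left out (311 without WT 1). In DKO against WT, 668 became 403 with DESeq2 and from 250 (without DKO 2) to 1065 (without WT 1), with 340 without DKO 1. In DKO against P2KO, 250 became 162 with DESeq2, 579 with the 2 genotypes alone and from 108 (without DKO 2) to 622 (without WT 2), with 577 without WT 1, 162 without P2KO 1, 144 without P2KO 2 and 115 without DKO 1. The cause was not tested. The next alternatives were chosen after the data were seen. Within 1 Mb of Runx3, 1 call in P2KO against WT became 2 with no filter, 0 at a mean of at least 50 counts, with DESeq2 or with the 2 genotypes alone, and 0 to 2 with 1 library left out. There 12 in DKO against WT ranged from 9 to 14, and 11 in DKO against P2KO became 7 with DESeq2 and 6 to 15. Co-regulators called were 2 to 6 in DKO against WT and 0 to 3 in P2KO against WT. In DKO against P2KO they were 0 to 3, with 0 by DESeq2 and 2 with the 2 genotypes alone.

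The replicate numbers carry no pairing in the labels. Deviations of same-numbered libraries from their group means correlated at -0.0572 (WT and P2KO), 0.0574 (WT and DKO) and -0.0502 (P2KO and DKO). With the replicate block the counts were 45 in P2KO against WT, 555 in DKO against WT and 189 in DKO against P2KO, and within 1 Mb of Runx3 they were 0, 12 and 10. With it the log2 fold change of Runx3 was -2.40 against WT, and no call of Runx1, Runx2 or Cbfb changed.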

Other observations

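The libraries of P2KO differed from each other at a few genes, which were singled out after their values were seen. Among 15075 genes with a mean normalised count of at least 50 over the 6 libraries, 12 differed by at least 2-fold between P2KO 1 and P2KO 2, beside 10 between the WT libraries and 13 between the DKO libraries. Of these, 2 in P2KO, 2 in WT and 3 in DKO lie on chromosome 4, so their number there did not set P2KO apart. The 2 of P2KO were E2f2 and Myom3, 994.4 and 581.7 kb from Runx3 between gene ends. The processed pseudogene Gm10036 on chromosome 18 had normalised counts of 1.13 and 2.78 in WT, 71.8 in P2KO 1, 1.06 in P2KO 2, and 136 and 153 in DKO. Whether reads of a parent gene on another chromosome were counted at this copy was not tested. The hemoglobin genes Hba-a1 and Hbb-bs were lower in P2KO 1 than in P2KO 2, at 0.267 and 0.34 of its normalised counts (after adding 1).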
